A study of Mus musculus with 14 samples.

Results

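The hearts of CTRP9 knock-out (KO) mice were compared with those of wild-type (WT) mice, all fed a high-fat diet (HFD) for 12 weeks, using the genes that the authors listed for this comparison. Bulk RNA sequencing covered 4 KO and 3 WT whole hearts, 7 of the 14 samples of the series. The KO mice lack C1qtnf9, the gene for CTRP9, in all cells, and KO and WT mice were male C57BL/6J littermates. All of them received a diet with 60% of its energy from fat, started at 7 to 9 weeks of age. The other 7 hearts of the series came from HFD-fed mice given an AAV9 vector that expresses CTRP9 (AAV-CTRP9, n = 4) or Renilla luciferase (AAV-Luc, n = 3) under the troponin T promoter of cardiomyocytes. They are used here to look up the genes listed for KO vs. WT. The listing gives unscaled reads of 2372 RefSeq transcripts that belong to 1230 gene symbols, and the listed transcript with the highest mean count stood for each symbol. Where other transcripts of a gene were not selected, this can be a minor one. It holds only transcripts that the authors selected at a p-value under 0.05 in these hearts, so genes outside it were not analysed here. For this reason direction and size are given for the listed genes, and no test of the same hearts is read as evidence.

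CTRP9 is a secreted relative of adiponectin with a collagen-like stretch and a globular C1q domain. In the heart it is made mainly by endothelial cells and reaches cardiomyocytes from there. Diabetic cardiomyopathy is a disease of heart muscle under diabetes in which glucose use gives way to fatty acid use and the ventricle relaxes poorly. The comparison asks which transcripts differ in the heart when CTRP9 is missing under this diet.

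The RPKM sums gave back library totals of 15587701 to 18959587 reads in KO hearts and 14978278 to 18377715 reads in WT hearts. KO libraries carry the letters A to D and WT libraries A to C, because no source used here ties a column to an animal, and counts were scaled with the authors' own size factors. The libraries differed in their relation to GC content. Within its own group, the deviation of a gene correlated with GC content across 1005 genes at a Spearman's rho of -0.25 to 0.24 in the KO hearts and -0.25 to 0.28 in the WT hearts. The median GC content was 46.6% for genes listed as higher in KO, against 55.2% for those lower in KO, and the part of GC content in the listing was not tested. Library WT A held the highest value of all 7 hearts for 448 of the 751 genes lower in KO. Xist, the RNA that coats the inactive X chromosome in females, had 7.18, 1.06, 0.87 and 43.4 normalized counts in KO hearts, against 996, 136 and 0 in WT hearts. Since the study used male mice, the reads of library WT A go against that description. Libraries WT B and KO D held fewer Xist reads than WT A but more than the remaining hearts. What the Xist reads come from was not tested. Without library WT A, all 479 genes higher in KO and all 751 lower in KO kept their direction, so the counts by direction given below are the same without it, and the median log2 fold change over all listed genes was -0.17, against -0.23 with it. The genes were selected with this library among the hearts, so a kept direction was likely from the start and says little about its part. The tissue label fits its defining markers, since the cardiac myosin and actin genes Myh6 and Actc1 were the most abundant listed genes in KO and in WT hearts.

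C1qtnf9 itself was almost without reads in KO hearts. The gene lies on chromosome 14 (60768134 to 60780869, plus strand) of GRCm38 in the GENCODE M21 annotation. It had 0, 1.06, 0 and 1.85 normalized counts in KO hearts, against 563, 460.1 and 515 in WT hearts. Of its reads, 3 came from the 4 KO hearts and 1476 from the 3 WT hearts, which puts KO at 0.142% of WT (exact 95% limits 0.0293% and 0.416%, from counting error alone). An antisense gene overlaps it, and whether the counting used strand is not stated, although the libraries were strand-specific.

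Of the 1230 listed genes, 479 (38.9%) were higher and 751 (61.1%) were lower in KO hearts. The counts by direction of the gene lists below are to be read beside these shares. Every KO heart was above every WT heart for 345 genes, 28.0% of those listed, and below for 478 genes, 38.9%, so that 66.9% of the listed genes did not overlap. The differences were small. Among genes with a mean of at least 100 normalized counts, the median log2 fold change was 0.27 for the 382 higher genes and -0.30 for the 651 lower genes. In that range 22 higher genes (5.76%) and 52 lower genes (7.99%) had a log2 fold change of at least 0.5 in size. A 2-fold difference, a log2 fold change of 1, was reached by 3 of these lower genes and by 0 of these higher genes, and by 5.69% of listed genes at any level in either direction. For 534 symbols 2 or more transcripts were listed, and for 0 of them did the transcripts differ in direction. Of the non-coding transcripts, 52 were lower and 20 were higher. Fold changes and their standard errors (SE) come from edgeR's quasi-likelihood model refitted to the listed genes. At an adjusted p under 0.05 in that refit 93.5% of them passed, 36.7% higher and 56.7% lower, which only restates how they were chosen.

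**Figure D1:**
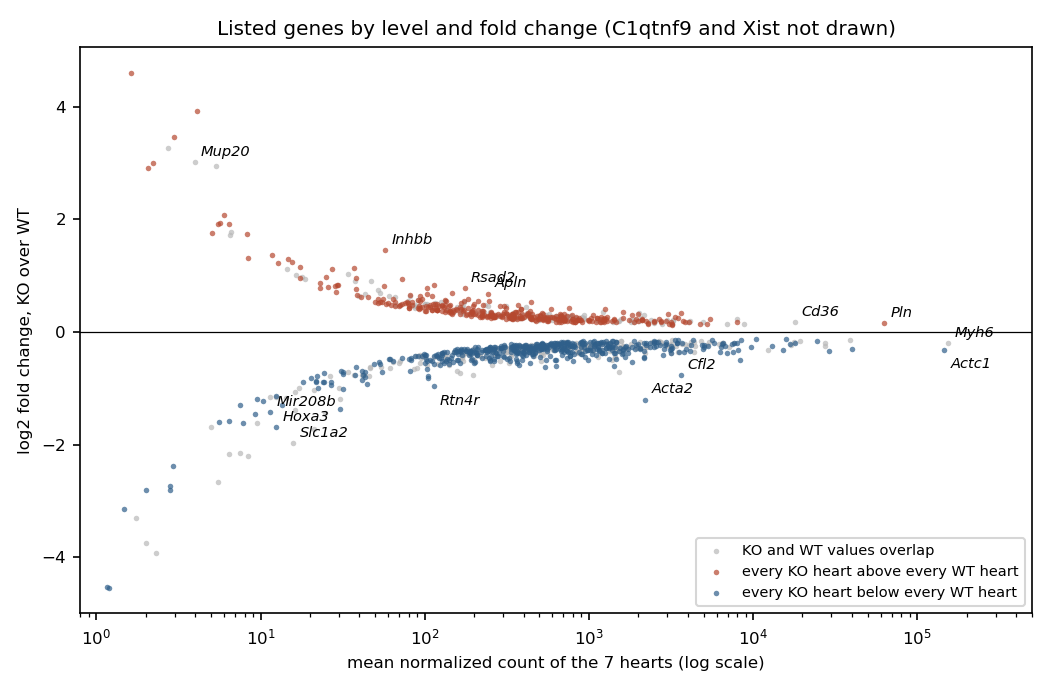
Log2 fold change of KO over WT hearts (y axis) against the mean normalized count of the 7 hearts (x axis, log scale) for the listed genes, each point 1 gene, colored by whether the values of KO and WT hearts overlap. Genes near 0 on the y axis are missing because of the selection, folds over 1 are found mainly below 100 normalized counts, and Acta2 is at -1.20. C1qtnf9 and Xist, which lie farther out at a mean above 100, are not drawn.

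Among the genes with a mean of at least 100 normalized counts whose groups did not overlap, Acta2 had the largest difference after C1qtnf9. Xist, whose groups overlapped, had a larger one, at -4.78 with all hearts and -2.36 without library WT A. Acta2 encodes smooth muscle alpha-actin and also marks activated fibroblasts. It lies on chromosome 19 (34241090 to 34255590, minus strand) and had 1106, 2109, 1424 and 1028 normalized counts in KO hearts, against 3117, 3234 and 3399.7 in WT hearts. All KO hearts were below all WT hearts, with a log2 fold change of -1.20 (SE 0.19). Cfl2 encodes the muscle form of cofilin, which severs actin filaments. It had 2437, 2739, 2283 and 3764 normalized counts in KO hearts, against 5439, 4553 and 4349 in WT hearts, again without overlap, and a log2 fold change of -0.77 (SE 0.15). Library KO D was the highest of the KO hearts for this gene. Rtn4r, the gene for the Nogo receptor, had 71.8, 58.1, 79.6 and 113 normalized counts in KO hearts, against 157, 166 and 151 in WT hearts, and its log2 fold change was -0.96 (SE 0.19). Nabp2, which encodes a subunit of a complex that binds single-stranded DNA, had 473, 428, 459 and 390.4 normalized counts in KO hearts, against 769, 658 and 597 in WT hearts. Its values did not overlap and gave a log2 fold change of -0.62 (SE 0.10). Tomm6, a small subunit of the import pore of the outer mitochondrial membrane, had 506, 482, 542 and 529.8 normalized counts in KO hearts, against 833, 868 and 646 in WT hearts, at a log2 fold change of -0.60 (SE 0.10). Rnasek had 1168 ± 44.3 normalized counts (SD, n = 4) in KO hearts and 1771 ± 394 (SD, n = 3) in WT hearts and Sorcs2, a sorting receptor of the VPS10 family, had 307 ± 43.7 normalized counts (SD, n = 4) in KO hearts and 465 ± 59.4 (SD, n = 3) in WT hearts, both at a log2 fold change of -0.60. The zinc finger genes Zfp580 and Zfp467 had log2 fold changes of -0.78 (SE 0.14) and -0.66 (SE 0.15). The non-coding RNAs 1700120C14Rik and Gm45928 followed at -0.81 (SE 0.20) and -0.58 (SE 0.19).

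Among the genes higher in KO, Inhbb had the largest difference above a mean of 50 normalized counts. It encodes the beta B subunit of activin B and of inhibin B, ligands of the TGF-beta family. It lies on chromosome 1 (119415465 to 119422248, minus strand) and had 83.03, 94.02, 64.7 and 73.8 normalized counts in KO hearts, against 33.9, 30.6 and 21.7 in WT hearts. Every KO heart was above every WT heart, and the log2 fold change was 1.45 (SE 0.21). Apln encodes apelin, a peptide made by endothelial cells that raises contractility and widens vessels. It had 323, 325, 288 and 228 normalized counts in KO hearts, against 154, 187 and 202 in WT hearts, at a log2 fold change of 0.68 (SE 0.14) without overlap. Prnd, the gene for the prion-like protein doppel, had 153, 124, 130.3 and 97.8 normalized counts in KO hearts, against 58.5, 74.99 and 85.8 in WT hearts, at a log2 fold change of 0.78 (SE 0.18). Prn, at 0.82 (SE 0.18), is a transcript that reads through from the prion protein gene Prnp into Prnd and shares sequence with both, so reads of these 3 symbols cannot be told apart fully. Prnp itself had 1669 ± 261 normalized counts (SD, n = 4) in KO hearts and 1415 ± 125 (SD, n = 3) in WT hearts, and its groups overlapped. Rsad2, which encodes the antiviral protein viperin, had 180.4, 193, 193 and 286 normalized counts in KO hearts, against 109, 126 and 139.5 in WT hearts, with library KO D the highest. Ift122, a part of the transport complex of cilia, had 246 ± 38.7 normalized counts (SD, n = 4) in KO hearts and 167 ± 15.6 (SD, n = 3) in WT hearts, and Asb1, an adaptor of a ubiquitin ligase, had 200.3 ± 22.8 normalized counts (SD, n = 4) in KO hearts and 137 ± 20.3 (SD, n = 3) in WT hearts. Pdzd9 had a log2 fold change of 0.70 (SE 0.15), R74862 of 0.68 (SE 0.17) and the zinc finger gene Zfp970 of 0.64 (SE 0.17). Rps4l, Rps21 and Csl are close in sequence to other genes, and their log2 fold changes of 0.58, 0.56 and 0.54 are uncertain.

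**Figure D2:**
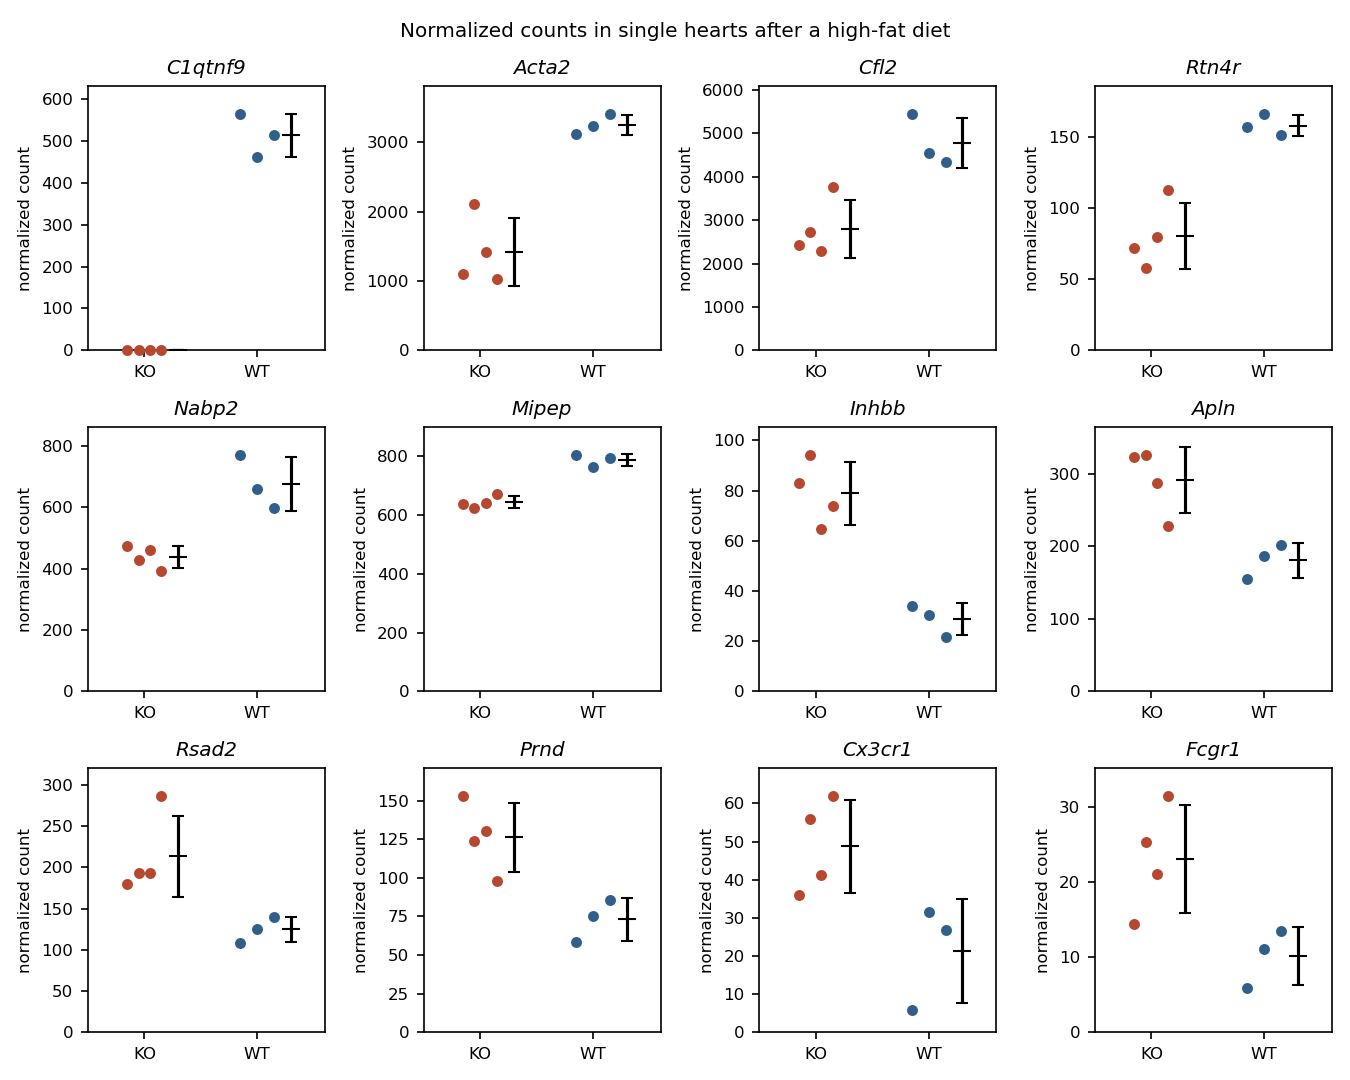
Normalized counts (y axis, from 0) of 12 listed genes in single KO hearts (left, red) and WT hearts (right, blue), with the mean and SD as a black bar beside each group (n = 4 and n = 3). The KO and WT values of these 12 genes do not overlap, and C1qtnf9 is at or below 1.85 in every KO heart.

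Several genes of low level had larger folds, on few reads. Of the Hox genes, which set position along the body axis in the embryo, 3 were listed, all lower in KO, beside 61.1% lower over all listed genes. Hoxa3 had 11.3, 5.28, 1.75 and 7.38 normalized counts in KO hearts, against 21.1, 25.9 and 14.5 in WT hearts. Hoxb3 had 7.18, 8.45, 8.75 and 8.31 normalized counts in KO hearts, against 24.6, 20.4 and 16.5 in WT hearts, and Hoxa4, noticed after its values were seen, had 5.13, 3.17, 4.37 and 3.69 normalized counts in KO hearts, against 16.4, 14.8 and 7.23 in WT hearts. None of these groups overlapped, and the log2 fold changes were -1.69 (SE 0.45), -1.30 (SE 0.30) and -1.61 (SE 0.44). Fgf12, an intracellular relative of the fibroblast growth factors that binds sodium channels, had 9.23, 7.39, 6.997 and 9.23 normalized counts in KO hearts, against 18.7, 24.1 and 11.4 in WT hearts. Nrgn, the gene for the calmodulin-binding protein neurogranin, had 23.6, 16.9, 19.2 and 12 normalized counts in KO hearts, against 49.1, 33.3 and 57.9 in WT hearts, at a log2 fold change of -1.37 (SE 0.28). On the higher side, Aldh1a3, which makes retinoic acid, had 13.3, 12.7, 16.6 and 21.2 normalized counts in KO hearts, against 3.51, 8.33 and 6.20 in WT hearts. Slx4ip, which takes part in telomere upkeep, had 16.4, 16.9, 18.4 and 26.8 normalized counts in KO hearts, against 7.02, 6.48 and 10.3 in WT hearts. The uncharacterized transcripts BC065397 and 6330415G19Rik had log2 fold changes of -1.23 (SE 0.34) and 1.22 (SE 0.39).

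Mir208b, the hairpin of a microRNA that lies in an intron of the slow myosin gene Myh7, was lower in KO. It had 8.20, 7.39, 3.50 and 7.38 normalized counts in KO hearts, against 16.4, 11.1 and 25.8 in WT hearts, without overlap and with a log2 fold change of -1.42 (SE 0.42). These are reads of the gene locus in a library of messenger RNA, so the mature microRNA was not measured. Its main mature form is shown because its seed (bases 2 to 8, in capitals) is what pairs with targets. It lies on chromosome 14 (54975710 to 54975731, minus strand, RefSeq on GRCm38.p6).
mmu-miR-208b-3p: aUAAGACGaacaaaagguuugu
Mhrt, a non-coding RNA transcribed from the other strand of the same myosin locus, had 179 ± 19.4 normalized counts (SD, n = 4) in KO hearts and 220 ± 23.8 (SD, n = 3) in WT hearts, and its groups overlapped. Myh6, which encodes the fast alpha-myosin of the adult mouse heart and is the neighbor of Myh7, had 168106, 133340, 132041 and 144118 normalized counts in KO hearts, against 160216, 161928 and 176798 in WT hearts. Library KO A lay within the WT range, and the log2 fold change was -0.20 (SE 0.09).

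C1qtnf9 was deleted on chromosome 14, so the genes around it were listed separately. Within 10 Mb of its start, 25 genes were listed with it counted, 4 higher and 21 lower in KO, and 3 of the higher and 14 of the lower did not overlap. Over all listed genes 61.1% were lower, and 28.0% were higher and 38.9% lower without overlap. As a measure of how common listing was, 13.2% of the 190 symbols that the AAV table places in this window were listed, against 9.84% of 437 on the whole chromosome and 8.76% of 13024 over all. The gene before it, Spata13 ends 3578 bases upstream. It had 175, 158, 119.8 and 154 normalized counts in KO hearts, against 174, 295 and 299 in WT hearts, at a log2 fold change of -0.76 (SE 0.19). Library WT A lay among the KO hearts there. The gene after it, Mipep, which encodes a peptidase that trims imported mitochondrial proteins, starts 3704 bases downstream. It had 639.6, 625, 641 and 672 normalized counts in KO hearts, against 804, 766 and 796 in WT hearts, without overlap, a log2 fold change of -0.29 (SE 0.07). In the AAV hearts, where the gene itself is intact, Spata13 had a log2 fold change of 0.00 (SE 0.11) and Mipep of 0.22 (SE 0.10). The antisense gene that overlaps C1qtnf9 may share reads with C1qtnf9 and with Mipep.

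Farther out, Rcbtb1 was higher, with 14.4, 28.5, 18.4 and 21.2 normalized counts in KO hearts, against 8.19, 8.33 and 9.30 in WT hearts. These are few reads, and the listed transcript may be a minor one of the gene. Ptk2b, which encodes the calcium-activated kinase PYK2, had 80.98, 147, 134 and 134 normalized counts in KO hearts, against 167, 198 and 174 in WT hearts, at a log2 fold change of -0.54 (SE 0.18). Blk, a kinase gene of B cells, had 11.2 ± 3.52 normalized counts (SD, n = 4) in KO hearts and 23.1 ± 11.9 (SD, n = 3) in WT hearts with overlapping groups, also on few reads. Ctsb, the lysosomal protease cathepsin B, had 6913 ± 181 normalized counts (SD, n = 4) in KO hearts and 8054 ± 919 (SD, n = 3) in WT hearts, at a log2 fold change of -0.22 (SE 0.08). Msra, which repairs oxidized methionine, Ints9, a subunit of the Integrator complex, and Prmt5, an arginine methyltransferase, were lower without overlap, at -0.25 (SE 0.07), -0.32 (SE 0.10) and -0.21 (SE 0.07). Sorbs3, an adaptor at cell adhesions, and Zfp395 were lower without overlap at -0.35 (SE 0.11) and -0.38 (SE 0.12), and Ndrg2 at -0.13 (SE 0.07). Ephx2, the soluble epoxide hydrolase, and Kctd9 were higher without overlap at 0.18 (SE 0.07) and 0.31 (SE 0.08). The alpha-1A adrenergic receptor gene Adra1a was higher at 0.35 (SE 0.16), with overlap. Dad1, Nop9 and Eef1akmt1 were lower with overlapping groups, at -0.26, -0.45 and -0.32.

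**Figure D3:**
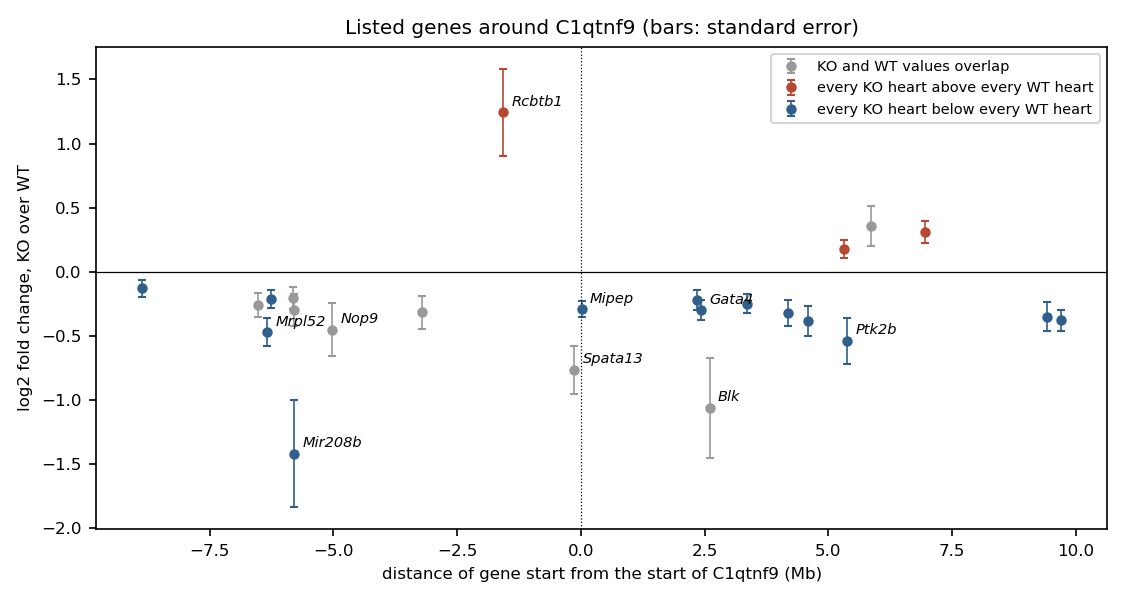
Log2 fold change of KO over WT hearts (y axis, bars: SE) of the listed genes around C1qtnf9 against the distance of their start from the start of C1qtnf9 in Mb (x axis), with C1qtnf9 itself left out. Most points lie between -0.6 and 0, Spata13 and Mipep flank the deleted gene, Rcbtb1 is the only one above 1, and Mir208b and Blk lie below -1. Rcbtb1, Mir208b and Blk rest on few reads.

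Genes of the contractile apparatus were listed mostly as lower. Of 51 genes of the sarcomere and Z-disc, 13 were listed as lower and 1, Csrp3, as higher, with a median log2 fold change of -0.22, beside -0.23 and 61.1% lower over all listed genes. Actc1, the cardiac alpha-actin and one of the most abundant transcripts, had 124106, 147505, 126650 and 131575 normalized counts in KO hearts, against 154506, 163038 and 176421 in WT hearts, without overlap and at -0.31 (SE 0.08). Xirp1, an actin-binding protein of intercalated discs, was at -0.33 (SE 0.09). Mypn, which anchors titin and nebulin-like proteins in the Z-disc, was at -0.27 (SE 0.07) and Trim55, a ubiquitin ligase bound to titin, at -0.27 (SE 0.08). Smyd1, a methyltransferase needed for sarcomere assembly, Tmod1, which caps the slow end of actin filaments, and Actn2, the actinin of the Z-disc, were lower without overlap at -0.19 (SE 0.06), -0.20 (SE 0.07) and -0.16 (SE 0.06). Of 46 genes of intercalated discs, costameres and the cytoskeleton, 3 were higher and 4 lower. Itgb1, the integrin beta 1 chain, had 3759 ± 196 normalized counts (SD, n = 4) in KO hearts and 3165 ± 119 (SD, n = 3) in WT hearts, and Ctnnb1 and Lmna, the genes for beta-catenin and lamin A and C, were higher without overlap at 0.15 (SE 0.06) and 0.19 (SE 0.09). Jup, Speg and Vcl were lower without overlap at -0.22, -0.24 and -0.16.

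The CArG box, the site of serum response factor (CC, 6 bases of A or T, then GG), was looked for in RefSeq promoter windows from 250 bases before to 50 bases after the gene start, on both strands. Of the 11 lower sarcomere genes with a window, 2 held it, Actc1 and Ldb3, beside 1.81% of all 27025 symbols with a window. A match is a run of letters and not a measured site. No share was taken for the other sarcomere genes, so the 2 matches describe these genes and not the KO hearts. The matches are in capitals, written along the gene's strand, with 25 bases on each side. The Actc1 stretch is on chromosome 2 (114052888 to 114052947, minus strand) and that of Ldb3 on chromosome 14 (34588682 to 34588741, minus strand) of GRCm38.p6.
Actc1: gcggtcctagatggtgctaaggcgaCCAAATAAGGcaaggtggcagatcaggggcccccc
Ldb3: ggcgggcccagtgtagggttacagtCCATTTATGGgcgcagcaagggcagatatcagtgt

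Cardiac transcription factors were listed in 6 of 40 cases, all lower, with a median log2 fold change of -0.27. Over all listed genes 61.1% were lower and the median was -0.23. Gata4 lies 2.43 Mb from C1qtnf9 and had 2002, 1975, 1710 and 1772 normalized counts in KO hearts, against 2233, 2257 and 2382 in WT hearts, without overlap. Camta2, a coactivator of Nkx2-5 under hypertrophic stimuli, was lower without overlap at -0.19 (SE 0.08). Tbx3, a repressor that shapes the conduction system, Mef2d and Nfatc1 overlapped between the groups at -0.36, -0.20 and -0.30. Of 24 marker genes of atria and conduction tissue 3 were listed, all lower. Nppa, the atrial natriuretic peptide, had 903, 1687, 851 and 1341 normalized counts in KO hearts, against 1775, 1449 and 2625 in WT hearts, with overlap. Whether such differences reflect fewer cells of a type or less RNA per cell cannot be told apart in whole hearts.

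Of 39 genes of calcium handling, 2 were higher and 5 lower. Pln encodes phospholamban, the brake on the calcium pump of the sarcoplasmic reticulum, and it was the most abundant gene listed as higher. It had 66258, 66077, 64378 and 66599.8 normalized counts in KO hearts, against 62975, 53242 and 61545 in WT hearts, without overlap, a log2 fold change of 0.15 (SE 0.07). The sodium-calcium exchanger gene Slc8a1 had 3875 ± 94.3 normalized counts (SD, n = 4) in KO hearts and 4559 ± 317 (SD, n = 3) in WT hearts, also without overlap. Prkaca, the catalytic subunit of protein kinase A, and Calm3, a calmodulin gene, were lower without overlap at -0.24 (SE 0.08) and -0.20 (SE 0.08). Casq1, the calsequestrin of skeletal muscle, had 128 ± 44.3 normalized counts (SD, n = 4) in KO hearts and 213 ± 86.3 (SD, n = 3) in WT hearts with overlap. Of 50 ion channel genes, 8 were lower and 1 was higher, beside 61.1% lower over all listed genes. Fxyd1, phospholemman, which inhibits the sodium pump, had 5907, 5528, 5581 and 5303 normalized counts in KO hearts, against 8486, 6611 and 6360.1 in WT hearts, at a log2 fold change of -0.36 (SE 0.10). Kcnj8 and Kcnj11 encode the pores of the ATP-sensitive potassium channels of vessels and of cardiomyocytes. Kcnj8 was higher without overlap at 0.32 (SE 0.09) and Kcnj11 lower without overlap at -0.18 (SE 0.07). Kcnn2, a calcium-activated potassium channel gene, was lower without overlap at -0.36 (SE 0.14). Dbh, which makes noradrenaline in sympathetic nerves, had 65.6, 67.6, 67.3 and 54.5 normalized counts in KO hearts, against 133, 79.6 and 100.2 in WT hearts, without overlap. Stmn2, another gene of neurons, went the other way with 99.4, 128, 95.3 and 94.1 normalized counts in KO hearts, against 64.3, 70.4 and 90.9 in WT hearts.

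Genes that regulate chromatin were listed almost only as lower. Of 84 such genes, 12 were lower and 1, Kat2b, was higher, with a median log2 fold change of -0.25, beside the same 61.1% and -0.23. Setd1b, which methylates lysine 4 of histone H3, had 428, 379, 380.5 and 390.4 normalized counts in KO hearts, against 531, 551 and 519 in WT hearts, without overlap and at -0.44 (SE 0.07). Kmt2e and Kdm6b, a methyltransferase relative and a demethylase, were lower at -0.32 (SE 0.09) and -0.30 (SE 0.08). Kat2b, an acetyltransferase, had 736 ± 28.6 normalized counts (SD, n = 4) in KO hearts and 633 ± 39.7 (SD, n = 3) in WT hearts. The GC content was 59.0% for Setd1b and 59.6% for Kdm6b, against 46.6% for Kat2b, and its part in this split was not tested. Among 54 nuclear receptors and coregulators, 5 were listed, all lower, again beside 61.1% over all listed genes. Ppargc1b, a coactivator of mitochondrial genes, and Rarg, a retinoic acid receptor, were at -0.41 (SE 0.14) and -0.36 (SE 0.13) with overlap. Of 24 clock genes, 3 were listed, all lower. Nfil3, a repressor bound to D-box elements, had 66.6, 68.7, 74.3 and 72.9 normalized counts in KO hearts, against 95.9, 100 and 96.1 in WT hearts, and Nr1d1 (REV-ERB alpha) and Hlf overlapped between the groups at -0.38 and -0.28.

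Insulin signalling contributed 4 of 37 genes. Gsk3a, a kinase that restrains glycogen synthase, had 1133, 1090.2, 1055 and 1002 normalized counts in KO hearts, against 1589, 1305 and 1259.6 in WT hearts, without overlap, a log2 fold change of -0.37 (SE 0.09). Tsc2, which holds back mTOR, was lower without overlap at -0.20 (SE 0.07), and Akt2, the insulin-responsive AKT kinase, was lower at -0.28 (SE 0.11), with library WT C inside the KO range. Foxo4 was higher at 0.21 (SE 0.09), with overlap. Of 35 genes of glucose uptake, glycolysis and glycogen, 6 were lower and 4 higher. Hexokinase 1 (Hk1) had 1724 ± 124 normalized counts (SD, n = 4) in KO hearts and 2132 ± 196 (SD, n = 3) in WT hearts, without overlap, at -0.31 (SE 0.09). Gys1 and Pygm, which build and break down glycogen in muscle, were both lower without overlap at -0.19 (SE 0.08) and -0.19 (SE 0.08), as was Gpi1 at -0.20 (SE 0.08). Ldhb and Pkm were higher without overlap at 0.23 (SE 0.07) and 0.14 (SE 0.07). The kinases that shut pyruvate dehydrogenase were split. Pdk1 had 2262, 2218, 2247 and 2268 normalized counts in KO hearts, against 1860.1, 1989 and 1871 in WT hearts, at 0.24 (SE 0.06), and Pdk2 had 7963, 6881, 7359 and 7259 normalized counts in KO hearts, against 10132, 9107 and 8247 in WT hearts, at -0.31 (SE 0.08).

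Of 48 genes of fatty acid uptake and oxidation, 5 were higher and 3 lower. The fatty acid transporter Cd36 had 18558, 19894, 18189 and 19219 normalized counts in KO hearts, against 16040.1, 16062 and 18422 in WT hearts, with library WT C inside the KO range, at 0.17 (SE 0.07). Etfa, which passes electrons from fatty acid oxidation to the respiratory chain, Hadhb, a subunit of the trifunctional protein, and the fatty acid binding protein gene Fabp4 were higher without overlap at 0.29 (SE 0.07), 0.25 (SE 0.08) and 0.23 (SE 0.07). The triglyceride lipase gene Pnpla2 and the carnitine acetyltransferase gene Crat were lower without overlap at -0.20 (SE 0.07) and -0.13 (SE 0.06). Acot1 was higher at 0.35 (SE 0.14), but it is close in sequence to other acyl-CoA thioesterase genes.

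Mitochondrial genes were listed in either direction, and no difference between these lists was tested. Over all listed genes 38.9% were higher and 61.1% lower. Of 17 genes of ATP synthase and its inhibitor, 5 were higher and 3 lower, with a median log2 fold change of 0.21. Atp5k and Atp5e, small subunits, were higher without overlap at 0.53 (SE 0.09) and 0.40 (SE 0.08). Atpif1, the inhibitor of the enzyme, had 1552, 1665, 1541 and 1396 normalized counts in KO hearts, against 1886, 1995 and 2081 in WT hearts, without overlap. Of 31 TCA cycle and pyruvate dehydrogenase genes, Pdk1 and Pdk2 among them, 6 were higher and 2 lower, with a median of 0.19. Pdha1, a catalytic subunit of pyruvate dehydrogenase, had 8744, 8482, 8136 and 8242 normalized counts in KO hearts, against 7795, 7005 and 7452 in WT hearts, and Dld, the subunit that it shares with other dehydrogenases, and Ogdhl were also higher without overlap at 0.20 (SE 0.07) and 0.24 (SE 0.08). Of 28 genes of complexes II to IV, 2 were higher and 2 lower. Of 78 genes of the mitochondrial ribosome, 6 were listed, all lower. Mrpl52 had 275, 258, 277 and 273 normalized counts in KO hearts, against 438, 382 and 309 in WT hearts, without overlap, and Mrpl22, Mrps17 and Mrpl36 were lower without overlap at -0.34 (SE 0.12), -0.22 (SE 0.07) and -0.26 (SE 0.11). Of 38 complex I genes, 5 were lower and 2 higher. Ndufa8 was lower at -0.36 (SE 0.09), Ndufs8 at -0.30 (SE 0.09) and Ndufa3 at -0.30 (SE 0.10), and Ndufa10 and Ndufa4 were higher at 0.13 (SE 0.06) and 0.19 (SE 0.08), all without overlap. Of 52 genes of mitochondrial dynamics, import and quality control, 7 were higher and 3 lower. Tfam, which packs and transcribes mitochondrial DNA, had 267, 275, 284 and 287 normalized counts in KO hearts, against 249, 194 and 237 in WT hearts, and Polg, the polymerase that copies it, was also higher without overlap at 0.25 (SE 0.08). Timm10, a chaperone between the membranes, was higher at 0.33 (SE 0.10) and Chchd2 at 0.43 (SE 0.11). Chchd10, the partner of Chchd2, was lower at -0.32 (SE 0.10), with library WT C inside the KO range. Phb2, a prohibitin, was lower without overlap at -0.18 (SE 0.07). Slc25a5, an adenine nucleotide carrier, had 311, 371, 336 and 366 normalized counts in KO hearts, against 259.7, 246 and 245 in WT hearts, and Slc25a23, a calcium-regulated carrier, had 1242 ± 95.9 normalized counts (SD, n = 4) in KO hearts and 1549.9 ± 67.7 (SD, n = 3) in WT hearts.

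Protein turnover genes took both directions, beside 38.9% higher and 61.1% lower over all listed genes. Of 45 genes of autophagy, mitophagy and lysosome biogenesis, 6 were higher and 2 lower. Fundc1, a mitophagy receptor, had 218, 271, 225 and 279 normalized counts in KO hearts, against 181, 179 and 218 in WT hearts, and Rb1cc1, a subunit of the kinase complex that starts autophagy, had 687, 641, 647 and 597 normalized counts in KO hearts, against 481, 548 and 583 in WT hearts, both without overlap. Optn and Bnip3 were higher with overlap at 0.29 and 0.30, and Tax1bp1 without overlap at 0.19. Gabarap and Calcoco1 were lower with overlap at -0.27 and -0.28. Of the vacuolar proton pump, noticed after its values were seen, 4 subunits were higher (Atp6v0c, Atp6v1a, Atp6v1e1 and Atp6v1b2) and 1 was lower (Atp6v0a1), at log2 fold changes of 0.70, 0.35, 0.23, 0.21 and -0.26. Of 44 chaperone genes, 5 were higher and 6 lower. Hspa8, the constitutive heat shock protein of the cytosol, had 2443, 2489.9, 2370.3 and 2537 normalized counts in KO hearts, against 3966, 2998 and 2847 in WT hearts, and Hspb6, a small heat shock protein of muscle, had 26029 ± 2295 normalized counts (SD, n = 4) in KO hearts and 33019 ± 1817 (SD, n = 3) in WT hearts. Calr and Dnajb9, of the endoplasmic reticulum, were lower without overlap at -0.30 (SE 0.07) and -0.30 (SE 0.08). The mitochondrial chaperone genes Hspd1 and Hspa9 were higher without overlap at 0.26 (SE 0.08) and 0.14 (SE 0.07). Of 44 translation factors, 3 were listed, all lower, among them Eif3k at -0.35 (SE 0.07) and Eef2 at -0.21 (SE 0.07). Of 82 cytosolic ribosomal protein genes, 6 were higher and 5 lower, and their near-identical copies make these values uncertain.

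Interferon-stimulated genes were the list with the most members on the higher side, 13 of 71, and 0 were lower, with a median log2 fold change of 0.52. Over all listed genes 38.9% were higher. Library KO D was the highest heart for 8 of the 13, namely Rsad2, Ddx58, Bst2, Gbp3, Ifi47, Ifit2, Psmb9 and Xaf1, and the part of this library in the count was not tested. Ddx58, the RNA sensor RIG-I, had 181, 199, 248 and 269 normalized counts in KO hearts, against 139, 174 and 176 in WT hearts, and Dtx3l, a ubiquitin ligase, had 229, 256, 229 and 251 normalized counts in KO hearts, against 200, 202 and 202 in WT hearts, both without overlap. Bst2, the tether of budding viruses, had 117, 127, 137 and 198 normalized counts in KO hearts, against 83.1, 133 and 83.7 in WT hearts, with library WT B inside the KO range. Ifi47, an interferon-induced GTPase, had 31.8, 36.97, 48.1 and 72.9 normalized counts in KO hearts, against 10.5, 32.4 and 32.03 in WT hearts, and Ifit2 had 144, 179, 158 and 227 normalized counts in KO hearts, against 109, 124 and 157 in WT hearts, both with overlap. Ifi204, Ifi205 and Ifi207 belong to a family of closely similar genes and had log2 fold changes of 0.96 (SE 0.27), 0.63 (SE 0.26) and 0.47 (SE 0.17). Traf2, a signalling adaptor of TNF receptors, had 138, 123, 121 and 135 normalized counts in KO hearts, against 86.6, 87.03 and 99.2 in WT hearts, and the sensor adaptor gene Tmem173 (STING) had 105 ± 18.9 normalized counts (SD, n = 4) in KO hearts and 75.9 ± 10.2 (SD, n = 3) in WT hearts. Both genes belong to a list of 54 genes of Toll-like receptor and NF-kappaB signalling, with 3 members higher and 1 lower. The third higher one was Tlr4 at 0.50 (SE 0.15), without overlap, and the lower one was Rela at -0.18 (SE 0.07), with overlap. The cytokine list, 77 genes with receptors included, held 1 higher gene, Cx3cr1, given below, and 2 lower ones. These were Ifngr2 at -0.15 (SE 0.07) and Tgfb2 at -0.47 (SE 0.16), with overlap. Of 24 genes of antigen presentation and of 12 shared leukocyte markers, 0 were listed. Listing was rare in any case, at 8.76% of the 13024 symbols that the AAV table gives with a position. A count of 0 in such short lists therefore says little, and unlisted genes were not analysed. Of 36 markers of monocytes and macrophages, 2 were listed, both higher. Cx3cr1, the fractalkine receptor, had 35.9, 55.99, 41.1 and 61.8 normalized counts in KO hearts, against 5.85, 31.5 and 26.9 in WT hearts, and Fcgr1, a receptor for immunoglobulin G, had 14.4, 25.4, 20.99 and 31.4 normalized counts in KO hearts, against 5.85, 11.1 and 13.4 in WT hearts, both without overlap on few reads. C7, a component of complement, had 39.98, 69.7, 36.7 and 30.5 normalized counts in KO hearts, against 8.19, 32.4 and 21.7 in WT hearts, with overlap.

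The core of the interferon-stimulated response element, the letters GAAA, any 2 bases and GAAA again, was looked for in the same promoter windows on both strands. Of the 12 listed interferon-stimulated genes with a window, 7 held it (Rsad2, Ddx58, Ifitm3, Bst2, Gbp3, Ifi205 and Ifi207), beside 3.99% of all symbols. Such genes are known for this element, so the share describes the list and not the KO hearts. The 3 stretches below show the match in capitals, on the gene's strand or its complement, and in Bst2 and Gbp3 a pair of matches overlaps. They lie on chromosome 12 (26456538 to 26456597, minus strand) for Rsad2, chromosome 8 (71537562 to 71537627, minus strand) for Bst2 and chromosome 3 (142559974 to 142560039, plus strand) for Gbp3.
Rsad2: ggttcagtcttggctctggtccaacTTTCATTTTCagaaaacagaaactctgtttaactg
Bst2: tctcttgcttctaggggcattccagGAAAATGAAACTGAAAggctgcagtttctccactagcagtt
Gbp3: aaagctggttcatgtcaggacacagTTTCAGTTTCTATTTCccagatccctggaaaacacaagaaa

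Of 43 genes of collagens and their processing, 4 were listed, all lower, beside 61.1% lower over all listed genes. Col1a1, the main chain of fibrillar collagen, had 947, 1444, 1294 and 1144 normalized counts in KO hearts, against 1432, 1479.5 and 1668 in WT hearts, with library KO B inside the WT range, and Col6a3 overlapped too at -0.36 (SE 0.15). Bmp1, which cleaves procollagen and lies 9.71 Mb from C1qtnf9, had 323, 333, 333 and 335 normalized counts in KO hearts, against 476, 387 and 431 in WT hearts, and Plod1, which hydroxylates collagen, had 1207 ± 48.1 normalized counts (SD, n = 4) in KO hearts and 1352 ± 20.98 (SD, n = 3) in WT hearts, both without overlap. Of 64 other matrix genes, 7 were lower and 2 higher, with a median log2 fold change of -0.30, beside 61.1% lower and a median of -0.23 over all listed genes. Tnxb (tenascin X), Hspg2 (perlecan) and Ltbp3 were lower without overlap at -0.35 (SE 0.08), -0.27 (SE 0.08) and -0.23 (SE 0.07). The proteases Adamts1 and Adamts9 were higher with overlap at 0.44 (SE 0.18) and 0.33 (SE 0.12). Smad6, an inhibitor of BMP signals, had 168, 169, 178 and 195 normalized counts in KO hearts, against 264, 211 and 205 in WT hearts. Of 18 markers of smooth muscle and pericytes, Acta2, Mylk and Des were lower, and Kcnj8 and Higd1b, both of pericytes, were higher, Higd1b with 41, 45.4, 39.4 and 59.1 normalized counts in KO hearts, against 23.4, 31.5 and 25.8 in WT hearts. Of 47 antioxidant and glutathione genes, 5 were lower and 1 was higher. Srxn1 had 291 ± 24.7 normalized counts (SD, n = 4) in KO hearts and 235 ± 24.2 (SD, n = 3) in WT hearts, and Gpx3 and Sod3, both secreted enzymes, overlapped between the groups at -0.36 (SE 0.14) and -0.35 (SE 0.14).

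**Figure D4:**
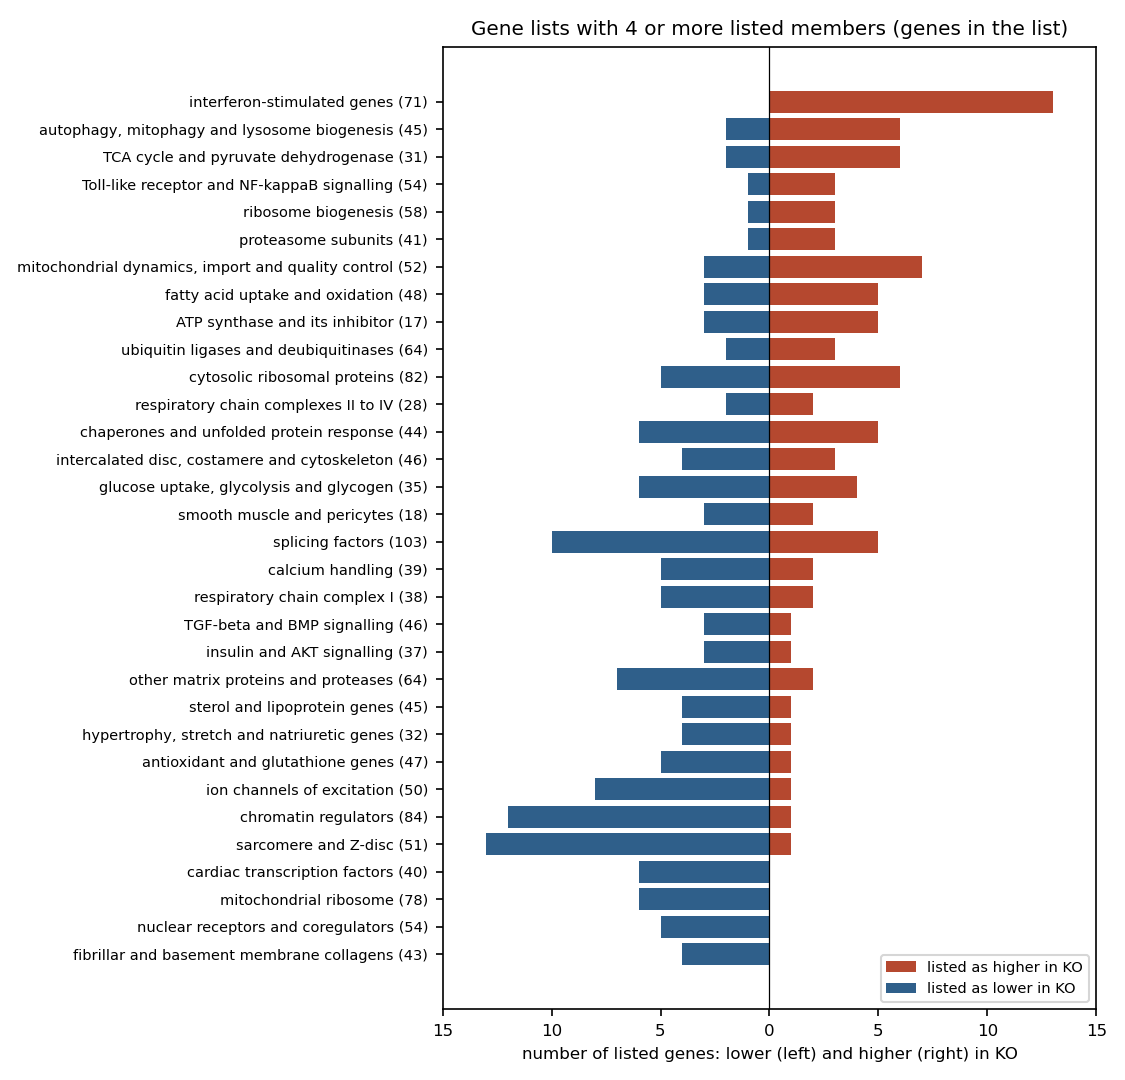
Number of genes listed as lower (left, blue) and as higher (right, red) in KO hearts for the gene lists with at least 4 listed members, with the size of each list in parentheses. The bar of the interferon-stimulated genes shows 13 higher and 0 lower, and that of the sarcomere and Z-disc 1 higher and 13 lower, while most members of every list are outside the table.

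The hearts given AAV vectors offer values of the listed genes that played no part in the listing. The unit there is CPM, the read count scaled to the library total, which the authors deposited on a log2 scale. C1qtnf9 had 109, 66.99, 44.3 and 59.6 CPM in AAV-CTRP9 hearts, against 26.3, 18.8 and 16.1 CPM in AAV-Luc hearts, a log2 fold change of 1.73 (SE 0.26) by limma. Of the genes higher in KO, 441 were measured, with a median log2 fold change of 0.08, and 37 (8.39%) were higher and 9 (2.04%) lower in AAV-CTRP9 at an unadjusted p under 0.05. Of the genes lower in KO, 705 were measured, with a median of -0.01, and 19 (2.7%) were higher and 48 (6.81%) lower. Over all 13219 symbols the median was 0.03, with 4.3% higher and 4.36% lower at that p, and 2 symbols (0.0151%) past an adjusted p of 0.05 by limma. That number was 0 in limma without the trend and 150 without AAV-Luc 1. The count of 37 became 16 (3.63%, beside 3.54% of all symbols) in limma without the trend. It was 19, 19, 13 and 24 without AAV-CTRP9 1, 2, 3 and 4, and 58 and 76 (17.2%, beside 8.14% of all symbols) without AAV-Luc 2 and 3. Without the heart AAV-Luc 1 the medians were 0.04 for the genes higher in KO and 0.03 for those lower in KO, and of the genes lower in KO 73 were then higher and 47 lower in AAV-CTRP9 at that p, and of the genes higher in KO 45 were higher and 27 lower. Across 1042 listed genes with known GC content, Spearman's rho between GC content and the deviation from the group mean was 0.46 in AAV-Luc 1 and -0.42 to 0.11 in the other AAV hearts, and its part in these medians was not tested.

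At an unadjusted p under 0.01 in limma, 28 of 1146 listed genes measured (2.44%) differed between AAV-CTRP9 and AAV-Luc, beside 2.2% of all symbols. Of the 28, 16 were lower in both KO and AAV-CTRP9, 5 were higher in both, 3 were higher in KO and lower in AAV-CTRP9, and 4 the reverse. These 4 include C1qtnf9 itself, deleted in the KO mice and delivered by the vector, so its opposite directions were set by the design. The 3 include Prn and Prnp, whose reads cannot be told apart fully. Of 22 fibroblast markers, 3 were listed for KO. Cd248 and Col1a1 were lower in KO and also lower in AAV-CTRP9. Dpep1 was higher in KO at 0.24 (SE 0.10), with overlap, and was at -0.20 (SE 0.09) in AAV-CTRP9. Cd248 had 14.8, 14.9, 13.5 and 13.3 CPM in AAV-CTRP9 hearts, against 24.3, 21.7 and 25.4 CPM in AAV-Luc hearts, at -0.75 (SE 0.09) with an adjusted p of 0.0419 by limma, and in the KO comparison its log2 fold change was -0.51 (SE 0.21). It had 273, 280, 229 and 186 normalized counts in KO hearts, against 482, 232 and 324 in WT hearts, with overlap. The adjusted p of Cd248 by limma was 0.225 without the trend, 0.148 to 0.194 with any AAV-CTRP9 heart left out, 0.00224 without AAV-Luc 1, 0.084 without AAV-Luc 2 and 0.129 without AAV-Luc 3, so the call was lost in most of these. Col1a1 had 55.9, 41.9, 45.4 and 45.2 CPM in AAV-CTRP9 hearts, against 71.6, 64.6 and 96.2 CPM in AAV-Luc hearts, at -0.71 (SE 0.14). Scpep1, a serine carboxypeptidase gene, was at -0.54 (SE 0.13) there and at -0.31 (SE 0.12) in KO. Fcrls and Snai3 were among the 7 that took opposite directions. Fcrls, a gene of resident macrophages and microglia, had 3.13, 2.44, 2.39 and 2.26 CPM in AAV-CTRP9 hearts, against 4.76, 3.25 and 4.71 CPM in AAV-Luc hearts, at -0.72 (SE 0.18), against 0.90 (SE 0.29) in KO. There it had 39, 76.1, 69.1 and 50.8 normalized counts in KO hearts, against 42.1, 20.4 and 33.1 in WT hearts, with overlap. Snai3, a zinc finger repressor, had 6.17, 4.92, 4.46 and 6.51 CPM in AAV-CTRP9 hearts, against 3.44, 2.82 and 1.25 CPM in AAV-Luc hearts, at 1.25 (SE 0.30), against -0.72 (SE 0.19) in KO, where it had 46.1, 32.7, 51.6 and 42.5 normalized counts in KO hearts, against 70.2, 80.5 and 63.03 in WT hearts. Cep128, a centriole gene, and Ttll7, which adds glutamate to tubulin, were higher in both, at 0.63 (SE 0.15) and 0.59 (SE 0.18) in AAV-CTRP9 and 0.46 (SE 0.19) and 0.83 (SE 0.25) in KO. The KO and WT values of Cep128 overlapped. Among the leading genes of the KO comparison, Acta2 had 43.5, 55.7, 39.3 and 38.4 CPM in AAV-CTRP9 hearts, against 48.9, 61.1 and 65.5 CPM in AAV-Luc hearts, at -0.41 (SE 0.14), so it was lower there too, with overlapping hearts. Fcgr1 had 1.09, 0.92, 0.81 and 0.78 CPM in AAV-CTRP9 hearts, against 1.52, 1.18 and 1.67 CPM in AAV-Luc hearts, at -0.69 (SE 0.25), and Mir208b had 1.81, 1.45, 1.75 and 1.63 CPM in AAV-CTRP9 hearts, against 1.09, 1.32 and 0.95 CPM in AAV-Luc hearts, at 0.58 (SE 0.21). Inhbb was at -0.11 (SE 0.22) and Apln at -0.20 (SE 0.13), both with overlapping hearts. Cx3cr1, the other listed macrophage marker, was at -0.03 (SE 0.09). Its mean there was 194 CPM in AAV-CTRP9 and 199 CPM in AAV-Luc hearts. Fcgr1, with counts of a similar order in KO and WT hearts, had means of 0.90 and 1.46 CPM. The Cx3cr1 transcript measured in the AAV hearts may thus be another one, and its value is not read for this marker. The listed interferon-stimulated genes went both ways in AAV-CTRP9. Among them Gbp3 was at 0.46 (SE 0.23) and Rsad2 at 0.26 (SE 0.15), while Ifitm3 was at -0.28 (SE 0.14) and Bst2 at -0.21 (SE 0.14).

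**Figure D5:**
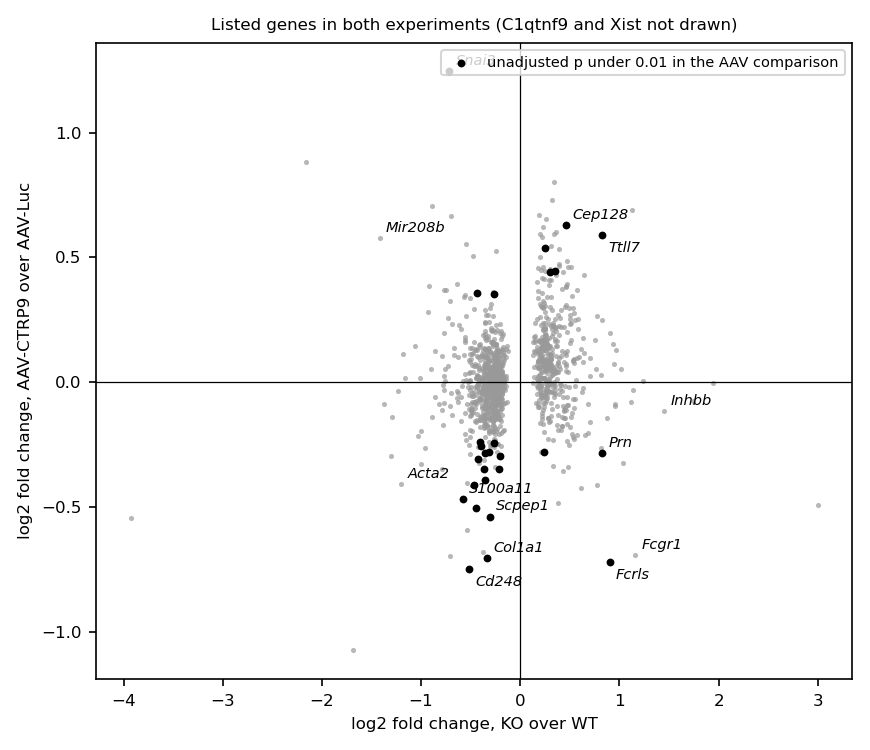
Log2 fold change of AAV-CTRP9 over AAV-Luc hearts (y axis) against that of KO over WT hearts (x axis) for the listed genes measured in both experiments, each point 1 gene. Black points passed an unadjusted p under 0.01 in the AAV comparison, where Cd248 is at -0.75 and Snai3 at 1.25, and the gap around 0 on the x axis comes from the selection.

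Some large folds at low levels rested on 1 library, and these genes were noticed after their values were seen. Slc1a2, a glutamate transporter gene, had 7.18, 2.11, 5.25 and 13.8 normalized counts in KO hearts, against 11.7, 64.8 and 6.20 in WT hearts, and without library WT B its log2 fold change went to -0.28, against -1.97 with all hearts. Hsd3b3, a steroid dehydrogenase gene, had 13.3, 10.6, 8.75 and 25.8 normalized counts in KO hearts, against 9.36, 93.5 and 12.4 in WT hearts, and Acot3, an acyl-CoA thioesterase gene, had 23.6, 17.96, 11.4 and 27.7 normalized counts in KO hearts, against 12.9, 99.1 and 21.7 in WT hearts. Without library WT B both changed direction, to 0.42 for Hsd3b3 and 0.20 for Acot3. Prap1 had 15.4, 1.06, 1.75 and 0 normalized counts in KO hearts, against 0, 0 and 1.03 in WT hearts, nearly all of it in library KO A, and its log2 fold change was 1.19 without that library, against 3.26 with all hearts. Mup20 and Slco1a1, genes known from the liver, were higher in KO on few reads. Mup20 had 8.20, 1.06, 4.37 and 12 normalized counts in KO hearts, against 1.17, 0 and 1.03 in WT hearts, and Slco1a1 had 5.13, 0, 8.75 and 20.3 normalized counts in KO hearts, against 1.17, 0 and 2.07 in WT hearts. Library KO D was the highest for both, and without it the log2 fold changes were 2.52 for Mup20 and 2.09 for Slco1a1, against 3.02 and 2.95 with all hearts.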

How the data were processed

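Strand-specific messenger RNA libraries were read from 1 end at 50 bases. Adapters were removed by FastqCleaner, reads were placed on mm10 by bowtie2, and genes were annotated by biomaRt, while the submitters' processing notes also name DESeq2 and the study's methods edgeR. Software versions, the counter and its use of strand or of multiply mapped reads were not stated. The deposited KO and WT table gives raw counts for RefSeq transcripts. The deposited signal column is their mean normalized count over the 7 libraries, from which the library factors were worked back. The deposited RPKM column is their sum over libraries, from which library totals were worked back. The deposited p-value column was read only to learn that every row is under 0.05. The authors' fold changes and p-values were not used, and 14 further per-sample columns of TMM or RPKM values were not used. The AAV table holds, as deposited, log2 CPM of Ensembl transcripts with a prior count, and the transcript with the highest mean stood for each symbol.

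KO over WT fold changes came from edgeR 4.0.16 (quasi-likelihood, library factors as above, Benjamini-Hochberg adjustment) over 1230 symbols, and AAV-CTRP9 over AAV-Luc fold changes from limma 3.58.1 with an intensity trend over 13219 symbols, in R 4.3.3, both 2-sided with a threshold of 0.05. Since the KO table was selected on these hearts, its adjusted p-values describe the listed genes only. Both scripts were tested on simulated data. Nothing ties the KO and WT columns to single animals, and the p-values of both comparisons measure only the spread between these libraries. Alternatives were DESeq2 1.42.0 (test and size factors), TMM factors, library totals only, limma-voom, a mean count of at least 50, the transcript with the lowest mean, a mean CPM of at least 1, 1 CPM added before the log, limma without the trend, and each heart left out. Positions are from GENCODE M21 and count from 1, GC content was matched for 89.8% of symbols, and promoters and the microRNA are from RefSeq on GRCm38.p6. Summaries and plots used Python 3.11.15, pandas 2.3.3, scipy 1.17.1 and matplotlib 3.10.9.

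The members, the 52 gene lists and the rule for named genes were chosen with earlier results of these data known. The rule names C1qtnf9; the 12 largest folds per direction at a mean of at least 100, and the 6 at a mean of 10 to 100, among genes whose groups do not overlap; up to 4 members per direction of each list by fold over SE; every listed gene within 10 Mb of C1qtnf9; the 5 most abundant genes per direction; and the 8 largest AAV folds at an unadjusted p under 0.01. It gives 246 genes, not all of which are described. A further 34 genes in the text (among them Xist, Prnp, Hoxa4, Bst2, Ifit2, Smyd1, Actn2, Gys1 and Pygm) fell outside it and were chosen after their values were seen. Some listed genes are not reported here.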

Additional observations from a re-analysis of the deposited data

Results flagged for a closer look

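In 14 of the 204 genes looked at, 1 of the 4 KO hearts stood apart from the other 3, by the gap to its nearest neighbor as a share of the group's range. Chance gives about 5% of groups, and the pattern of these genes was not tested. Library KO D was the highest for Xist (ratio 0.852), Rsad2 (0.878) and Xaf1 (0.836), and the lowest for Zfp580 (0.924) and Dbh (0.847). Library KO B was the highest for Stmn2 (0.843), Gpx3 (0.878) and Sod3 (0.899), and the lowest for Ldb3 (0.902) and Kcnj11 (0.913). Library KO A was the highest for Mef2d (0.846) and Prap1 (0.886), and the lowest for Ctnnb1 (0.844) and Ldhb (0.94). For Rsad2 library KO D had 286 normalized counts, against 180.4, 193 and 193 in the other KO hearts. For Sod3, the extracellular superoxide dismutase, library KO B had 1362 normalized counts, against 956, 949.9 and 911.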

How the results depend on the processing

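The listed genes kept their direction under every alternative run for the KO comparison, except that 5 changed sign without library WT B, among them Hsd3b3 (0.42, with a range of -1.87 to 0.42 over the hearts left out) and Acot3 (0.20, range -1.61 to 0.20). Selection on the same hearts makes kept directions likely. The number of listed genes past an adjusted p of 0.05 in edgeR's refit was 1150, with 452 higher and 698 lower. With DESeq2 size factors of the listed genes it became 652 (177 lower), with TMM factors 695 (219 lower) and with the test of DESeq2 632 (157 lower). Such factors rest on the listing itself, in which lower genes prevail, and moved the median log2 fold change of all listed genes up by 0.12 with DESeq2 factors and by 0.10 with TMM factors, so a fold smaller than this shift depends on the scaling. Leaving out 1 heart gave 338 to 933 genes, 117 to 365 higher and 221 to 594 lower, with the lowest numbers without library KO D. Without library WT A there were 598, with 235 higher and 363 lower. Counts of genes whose hearts do not overlap, recomputed as an addition made after the data were seen, were 362 to 388 higher and 502 to 608 lower with 1 heart left out, against 345 and 478 with all. In the AAV hearts the median of the genes lower in KO ranged over -0.07 to 0.03 with 1 heart left out and that of the genes higher in KO over 0.04 to 0.10. No paired analysis was possible because the labels give no replicate numbers shared between KO and WT hearts, and the numbers in the column headings are not tied to any labelled sample. Depth limits the genes below 10 normalized counts, 17 of the higher and 22 of the lower ones.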
